A study of Mus musculus with 21 samples.

Results

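Cultured CD8 T cells from OT1 mice were compared on day 3 with and without a high dose of interleukin-2 (IL-2). Their T cell receptor is a transgene specific for an ovalbumin peptide. Both cultures had been started from naive cells on day 0 with anti-CD3/CD28 beads. The first then received wild type IL-2 at 50 IU/mL, and the second received no exogenous cytokine. All cells of these 2 libraries that passed a filter on depth, genes detected and mitochondrial share were used. This gave 3471 cells with IL-2 and 4456 without, or 7927 of the 106456 cells of the 21 libraries in the series. Each condition had 1 library, and the labels say neither how many mice gave the cells nor their age. There was thus no replicate, no test between conditions was made, and every interval below covers counting error only. The treatment label of the IL-2 library names interleukin-3, against its title and the description of the design, which were followed. One label describes cells sorted from tumours and another describes culture, and the cells were treated as cultured.

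IL-2 is the growth factor that activated T cells make for themselves and for their neighbours. Its receptor has an alpha chain (Il2ra, CD25), made after activation, and the beta (Il2rb) and gamma (Il2rg) chains, which signal through the kinases JAK1 and JAK3 to the transcription factor STAT5, and also to the MAP kinase and PI3 kinase pathways. In CD8 T cells a strong IL-2 signal is known for driving growth and effector differentiation, at the cost of the recirculating, naive or memory state marked by Tcf7, Klf2 and S1pr1.

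RNA was counted with unique molecular identifiers (UMIs), tags that mark single captured molecules. The IL-2 library held 16507682 UMIs with a median of 4436 per cell, and the library without cytokine held 22249358 with a median of 4551. Mitochondrial genes took 3.37% of UMIs with IL-2 and 4.82% without, and ribosomal protein genes 30.9% and 34.2%. Levels are given as relative counts of a library (CPM, UMIs per 1000000), so that a level shows the share of the RNA captured and not the amount per cell. All 8 T cell markers were present in both libraries, with summed levels of 3168 CPM with IL-2 and 4672 CPM without. The 7 B cell markers summed to 17.9 CPM with IL-2 and 33.8 CPM without, and Ms4a1 and Pax5 were at 0 in both. The 9 myeloid markers summed to 2.97 and 5.98 CPM, with Lyz2, Csf1r, Adgre1, Cd14 and C1qa at 0 in both, and of 4 natural killer cell markers Ncr1, Klrb1c and Klra8 were at 0 in both. The 5 markers of CD4 and regulatory T cells summed to 104 CPM with IL-2 and 161.2 CPM without, and the 3 of gamma delta T cells to 56.8 and 109 CPM, with none at 0. Single genes carried these sums, Ikzf2 at 76.6 and 147 CPM and Trdc at 52 and 108 CPM, while the other members were at higher levels with IL-2, such as Zbtb7b at 23.7 and 11.5 CPM and Tcrg-C1 at 3.7 and 0.539 CPM. The 3 erythroid markers matched in the tables summed to 3.15 CPM with IL-2, of which Hbb-bt gave 48 UMIs, and were at 0 without cytokine. As an alternative, cells with at least 2 B cell, myeloid or erythroid markers, or with Cd4 but neither Cd8a nor Cd8b1, were left out. Without these 38 and 66 cells, 391 genes were higher and 164 lower, against the 389 and 165 given next. Markers of natural killer and gamma delta T cells were not used for this. The libraries shared 4 cell barcodes, against 1 to 19 over the 210 pairs of libraries.

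Of 6030 genes that reached 20 CPM in either library, 389 (6.45%) were higher with IL-2 by at least 2-fold and 165 (2.74%) were lower by as much, where the fold was taken between CPM + 1. Differences of at least 4-fold were found for 67 genes on the higher and 24 on the lower side. The median log2 difference of all genes was 0.19 and 65.8% of genes were above 0, so gene groups below are to be read against that median. Scaling by trimmed means moved all genes by 0.14 on the log2 scale, to a median of 0.04, and then 287 genes were higher (4.78%) and 232 lower (3.86%). With totals that left out ribosomal protein and mitochondrial genes, more genes reached 20 CPM. Of the 7428 then tested, 370 were higher (4.98%) and 286 lower (3.85%). The share of called genes that were higher was 70.2% in the first scaling and 55.3% and 56.4% in the other two. No gene called on one side was called on the other under either scaling. Where a pair of levels is given for a gene from here on, the first is without cytokine and the second with IL-2, unless stated otherwise.

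**Figure D1:**
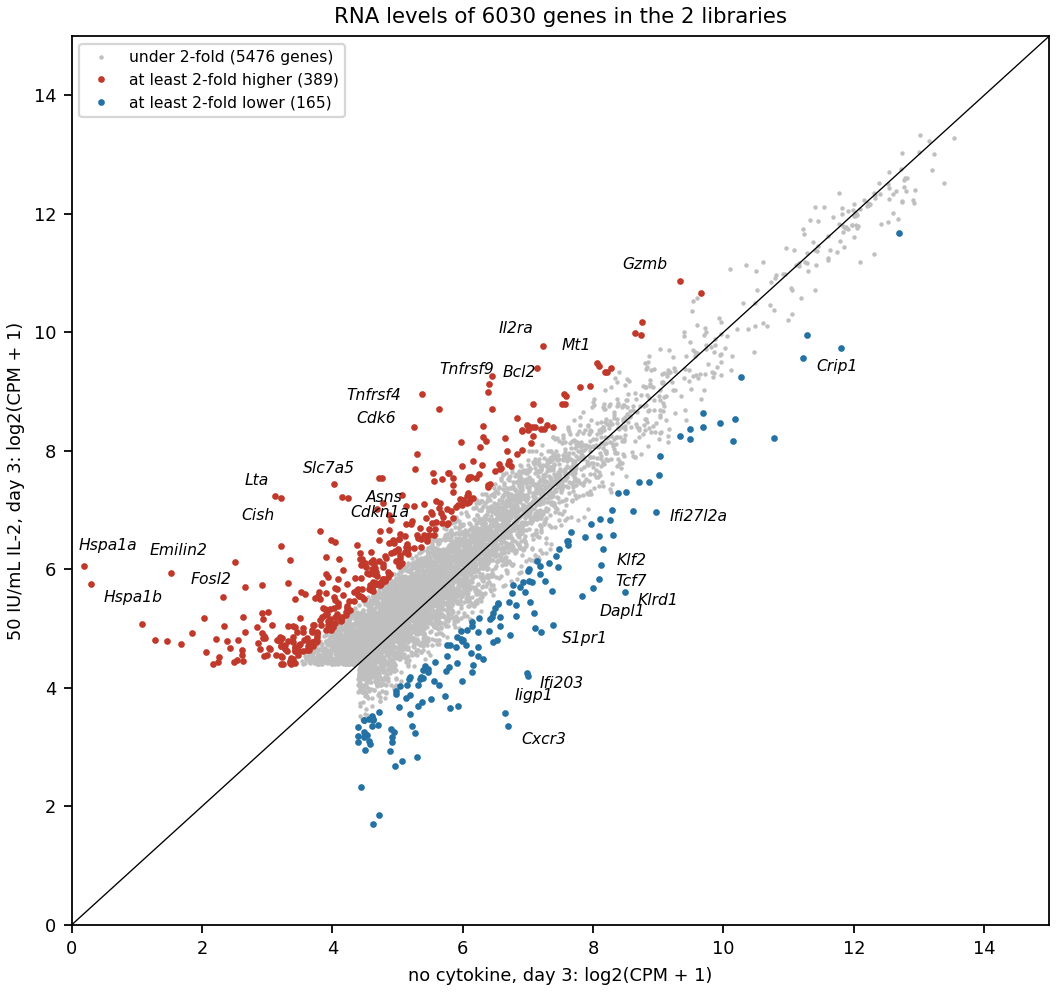
Levels of the 6030 genes as log2(CPM + 1), without cytokine on the horizontal axis and with 50 IU/mL IL-2 on the vertical axis, where each point is 1 gene and the line marks equal levels. Red points are the 389 genes at least 2-fold higher with IL-2 and blue points the 165 at least 2-fold lower.

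The receptor itself differed in 1 chain. Il2ra measured 149 CPM without cytokine and 869 CPM with IL-2, a ratio of 5.83-fold (5.61 to 6.05) with the 95% counting interval in brackets. The gene spans chr2:11642807-11693193 on the plus strand (GRCm38, GENCODE vM21). It was at 5.63 CPM in naive cells and at 264 CPM with 5 IU/mL IL-2. The beta chain Il2rb was at 355 and 438 CPM and the common gamma chain Il2rg at 190.3 and 135 CPM, both under 2-fold apart. Of the 11 receptor, kinase and adaptor genes that were tested, Il2ra alone passed 2-fold, while Jak1, Jak3, Stat5a and Stat5b lay within log2 differences of -0.36 to 0.47.

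In single cells the alpha chain was spread over most of the culture. After each cell was thinned to 2000 UMIs, 75.1% of cells with IL-2 had an Il2ra UMI (73.6% to 76.6%, exact Clopper-Pearson interval) against 23.5% (22.3% to 24.8%) without cytokine. Naive cells, which make little of this chain, gave 0.872%. That share does not measure stray RNA in the other libraries, which held more Il2ra. Thinning left out 124 cells with IL-2, 212 without and 306 naive cells, whose library had a median of 3799 UMIs. Without thinning the shares were 90.5%, 43.7% and 1.55%.

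Genes known as direct targets of STAT5 and as feedback on it formed the group with the highest median. Of 15 tested, 11 were at least 2-fold higher and none lower, with a median log2 difference of 1.81 against 0.19 over all genes. The fixed lists overlap in 15 genes, so they are not separate observations. Il2ra, Lta, Cdk6, Bcl2, Bcl2l1 and Myc count here and again in another list. Cish, which encodes an inhibitor of cytokine receptor signalling, was at 8.27 CPM without cytokine and 147 with IL-2, 17.8-fold (15.3 to 20.7) higher. Naive cells had 4.71 CPM, so the culture without cytokine stood far nearer to naive cells than to the IL-2 culture. Another feedback gene of this kind, Socs2, was at 37 and 133 CPM, and Socs1 at 81.4 and 141 CPM, under 2-fold. The cytokine gene Osm was at 3.78 and 22 CPM. The serine kinase genes Pim1 and Pim2, which support growth and survival, were at 192 and 485 CPM and at 119 and 322 CPM.

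Lymphotoxin alpha, Lta, a secreted cytokine of the TNF family, had the highest ratio of the 15, at 7.73 CPM without cytokine and 150.1 with IL-2 (19.4-fold, 16.6 to 22.8). A UMI of Lta was found in 22.6% of thinned cells with IL-2, 1.41% without and 1.43% of naive cells, and unthinned in 39.6%, 3.66% and 2.57%. Its neighbour on chromosome 17, Tnf, was at 6.83 and 27.7 CPM, 4.06-fold (3.37 to 4.91) higher. The share of Cish-positive cells was 24.4% with IL-2, 1.58% without and 0.783% in naive cells, and unthinned 44.4%, 3.64% and 1.57%.

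The sites that STAT5 binds have the palindrome TTCNNNGAA. It was looked for on both strands in the 250 bases before each gene's start in RefSeq (GRCm38.p6), a window that 4846 of the 6030 tested genes had, and matches are in capitals below. Of genes at least 4-fold higher with IL-2 that carry the palindrome, such as Nupr1 further below, these 4 are shown here as examples. They encode lymphotoxin alpha, an extracellular matrix glycoprotein, and the costimulatory receptors GITR (Tnfrsf18) and 4-1BB (Tnfrsf9), and lie at chr17:35205352-35205601 and chr17:71311012-71311261, both on the minus strand, and at chr4:156026072-156026321 and chr4:150927749-150927998, both on the plus strand.
Lta: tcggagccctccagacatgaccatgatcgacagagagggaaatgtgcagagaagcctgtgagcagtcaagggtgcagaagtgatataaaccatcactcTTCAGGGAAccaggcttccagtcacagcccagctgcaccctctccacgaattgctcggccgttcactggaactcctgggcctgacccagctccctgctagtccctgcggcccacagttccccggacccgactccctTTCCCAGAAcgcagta
Emilin2: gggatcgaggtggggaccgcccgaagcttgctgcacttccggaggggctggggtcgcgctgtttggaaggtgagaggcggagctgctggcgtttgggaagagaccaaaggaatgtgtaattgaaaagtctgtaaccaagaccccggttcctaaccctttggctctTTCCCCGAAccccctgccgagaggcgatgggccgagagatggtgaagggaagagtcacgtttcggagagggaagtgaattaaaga
Tnfrsf18: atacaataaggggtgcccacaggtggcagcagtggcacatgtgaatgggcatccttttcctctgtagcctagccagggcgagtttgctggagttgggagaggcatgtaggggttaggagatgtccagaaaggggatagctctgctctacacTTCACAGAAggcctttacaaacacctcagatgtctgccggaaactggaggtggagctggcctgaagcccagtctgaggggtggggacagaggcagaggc
Tnfrsf9: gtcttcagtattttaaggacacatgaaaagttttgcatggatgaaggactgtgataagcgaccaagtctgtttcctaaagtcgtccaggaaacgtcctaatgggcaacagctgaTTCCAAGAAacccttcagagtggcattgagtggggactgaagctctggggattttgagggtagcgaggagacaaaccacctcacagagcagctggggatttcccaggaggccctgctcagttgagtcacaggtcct
Lta had 2 matches, at 152 and 16 bases before its start, and the others 1 each, at 85, 99 and 136 bases. The palindrome was found in 7.8% of 295 higher genes with a window, 8.33% of 120 lower genes, 7.08% of the 4846 tested genes and 8.13% of all 27025 promoters. Of the 10 genes of the STAT5 list with a window, Lta alone had it. It was commoner in the interferon-stimulated list described below, at 5 of 14 genes with a window (35.7%). The amino acid list had it in 4 of 19 (21.1%).

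Survival and cell cycle entry genes within the same list were also far apart. Bcl2, the main survival factor of resting T cells, was at 191 CPM in naive cells, 84 on day 3 without cytokine and 557 with IL-2 (6.64-fold, 6.32 to 6.98). The level with IL-2 was thus above naive cells and the level without was below them. A Bcl2 UMI was present in 28.8% of naive cells, 15% of cells without cytokine and 65.3% of cells with IL-2, and unthinned in 42.6%, 30.9% and 86.8%. Bcl2l1, which encodes BCL-XL, was at 14.3 and 57.6 CPM (4.03-fold, 3.55 to 4.59). The other 12 tested genes of the BCL2 and apoptosis list were all under 2-fold, among them Mcl1 at 143 and 122 CPM and the pro-apoptotic Bcl2l11 at 42.1 and 66.9 CPM.

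Cdk6, a kinase of early G1 phase that pairs with D-type cyclins, was at 36.7 CPM in naive cells, 37.1 without cytokine and 336 with IL-2, 9.06-fold (8.42 to 9.75) higher. Its related kinase Cdk4 was at 126 and 121 CPM, and the partners Ccnd2 and Ccnd3 were at 229 and 402 CPM and at 208 and 368 CPM, under 2-fold. The CDK inhibitor gene Cdkn1a (p21) was on the same side, at 16.7 CPM without cytokine and 148 with IL-2 (8.86-fold, 7.94 to 9.91), while Cdkn1b (p27) was at 86 and 80.4 CPM.

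Proliferation genes did not follow these regulators. None of 38 tested genes of DNA replication and none of 39 of G2 and mitosis passed 2-fold, with medians of 0.24 and -0.09. Mki67 was at 379 and 407 CPM and Top2a at 581 and 643 CPM. The share of cells with a UMI of either gene was 63.5% with IL-2 (2127 of 3347 thinned cells, 61.9% to 65.2%) and 51.2% without (2172 of 4244, 49.7% to 52.7%), against 2.04% of naive cells. Without thinning these shares were 73.8%, 60.0% and 3.01%. More cells with IL-2 thus held a molecule of these genes at matched depth, while the summed levels of Top2a were within 1.11-fold (1.08 to 1.14).

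Since this share differed, the comparison was repeated, by a choice planned for the cells without such a UMI and added later for the cells with one. In the 908 and 1784 unthinned cells without a Mki67 or Top2a UMI, 639 of 5828 genes were higher with IL-2 (11%) and 211 lower (3.62%), and 358 and 147 of them were called in the whole cultures too. DNA replication genes were higher in 15 of 29 cases there, with a median of 1.01, and in none of 37 among cells with such a UMI, where the median was -0.02 and 340 of 6073 genes (5.6%) were higher and 147 (2.42%) lower. The STAT5 list had medians of 1.63 without and 1.80 with such a UMI, the amino acid list 1.55 and 1.50, homing -1.10 and -1.21, and interferon genes -1.53 and -1.03. These 4 lists were thus on the same side within both kinds of cells.

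The per-cell sums show how far the STAT5 group set the cultures apart. A thinned cell held a median of 9 UMIs of the 16 genes of the list with IL-2 and 3 without. These include Socs3, which was too low to be tested. Of cells with IL-2, 66.1% were above the 95th percentile of the culture without cytokine, 7 UMIs. No UMI of the group was found in 0.239% of cells with IL-2 and 6.06% without. Cells with 5 IU/mL IL-2 had a median of 4 UMIs, and 9.84% of them were above the same percentile.

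**Figure D2:**
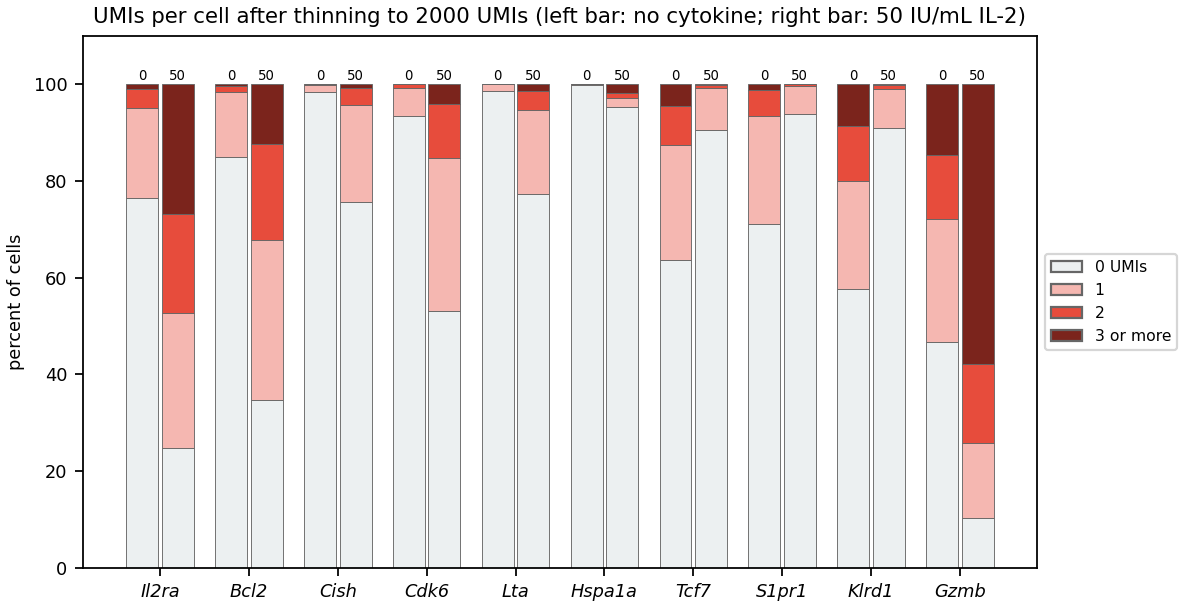
Percent of thinned cells with 0, 1, 2, or 3 or more UMIs of each gene, with the culture without cytokine in the left bar of each pair and the culture with 50 IU/mL IL-2 in the right bar. For Il2ra the share with a UMI was 23.5% and 75.1%, and for Tcf7 36.4% and 9.53%.

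Costimulatory receptors of the TNF receptor family were among the widest differences. Of 10 tested receptors, ligands and costimulators, 5 passed 2-fold on the higher side and 1 on the lower. The median was 1.17 and was 0.37 where totals without ribosomal protein and mitochondrial genes let 12 genes be tested, with the same counts. Tnfrsf4 (OX40) was at 40.5 CPM without cytokine, 84.3 with 5 IU/mL and 499 with 50 IU/mL IL-2, 12.3-fold (11.5 to 13.2) higher at the high dose. Tnfrsf9 was at 83.2, 172 and 509 CPM in the same order, and Tnfrsf18 at 140.00, 198 and 674 CPM. All 3 were thus in the order of the dose over single libraries. Part of the Tnfrsf18 exons lies opposite another annotated gene, so some of its UMIs may belong there if counting ignored strand. Tnfrsf8 (CD30) was at 3.1 and 35.2 CPM and the CD28 relative Icos at 70.5 and 225 CPM. On the other side stood Cd27, a TNF receptor of naive and memory cells, at 285 CPM without cytokine and 80.3 with IL-2, 3.54-fold (3.34 to 3.76) lower. A Tnfrsf4 UMI was present in 51.9% of thinned cells with IL-2, 6.6% without and 1.23% of naive cells, and unthinned in 69.3%, 14.2% and 2.24%.

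Genes of amino acid supply were higher with IL-2. Of 22 tested genes of amino acid uptake, serine and one-carbon metabolism and their regulator ATF4, 17 were at least 2-fold higher and none lower, with a median of 1.58. Both chains of the large neutral amino acid transporter were among them. Slc7a5, the transport chain, was at 25.2 CPM without cytokine and 186 with IL-2 (7.37-fold, 6.74 to 8.08), and Slc3a2, its heavy chain, at 54.2 and 197 CPM (3.63-fold, 3.39 to 3.88). The glutamine carrier gene Slc1a5, at 75.3 and 110.3 CPM, stayed under 2-fold.

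Among enzymes of serine synthesis, Psat1, which makes phosphoserine, was at 67.5 and 187 CPM. Phgdh, which opens the pathway, was at 167 and 339 CPM, only just past 2-fold and under it by trimmed-mean scaling and against 5 IU/mL IL-2 or IL-15, with log2 differences of 0.88, 0.80 and 0.81. Psph, the last enzyme, was at 41.8 and 49 CPM. The mitochondrial folate enzymes Shmt2 and Mthfd2 were at 50.6 and 182 CPM and at 56.9 and 172 CPM. Asparagine synthetase, Asns, was at 0.0541 CPM in naive cells, 17.9 without cytokine and 147 with IL-2 (8.21-fold, 7.38 to 9.14). The transcription factor gene Atf4 was at 113 and 374 CPM, and its stress targets were further apart. Trib3 was at 14.7 and 89.2 CPM, Ddit3 (CHOP) at 28.1 and 119.7 CPM, and Nupr1, a small chromatin protein, at 1.12 and 32.8 CPM (29.2-fold, 19.6 to 45.6).

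ATF4 with a C/EBP partner binds sites of the form TGATGNAA. The promoters of Asns and Nupr1 are shown as examples of genes at least 4-fold higher that carry this word. They lie at chr6:7693210-7693459 and chr7:126625471-126625720, both on the minus strand, with the match in capitals at 23 and 110 bases before the start.
Asns: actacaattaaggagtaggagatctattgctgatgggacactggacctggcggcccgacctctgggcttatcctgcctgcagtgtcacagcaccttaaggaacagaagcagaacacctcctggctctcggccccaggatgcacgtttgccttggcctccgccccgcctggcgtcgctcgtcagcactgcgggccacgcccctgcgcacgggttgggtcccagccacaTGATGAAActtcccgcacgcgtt
Nupr1: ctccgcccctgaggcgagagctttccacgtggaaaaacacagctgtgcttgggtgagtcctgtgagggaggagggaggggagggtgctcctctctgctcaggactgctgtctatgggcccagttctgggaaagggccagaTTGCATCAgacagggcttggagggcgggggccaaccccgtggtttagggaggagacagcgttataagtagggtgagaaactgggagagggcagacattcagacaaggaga
The match in Nupr1 is on the other strand and so reads as the reverse complement. The Nupr1 window also holds the palindrome TTCNNNGAA, which is not marked there. The word was present in 5.42% of the 295 higher genes with a window, 2.5% of the 120 lower genes, 2.27% of tested genes and 3.91% of all promoters. In the amino acid list 3 of 19 genes with a window had it. Pycr1 was the other, which was also at least 4-fold higher and is not shown.

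A thinned cell held a median of 5 UMIs of the amino acid list with IL-2 and 2 without, and 48.0% of cells with IL-2 were above the 95th percentile of the culture without cytokine. The shares of cells with a Slc7a5 UMI were 27.6% with IL-2, 4.67% without and 2.62% in naive cells, and unthinned 48.5%, 10.3% and 4.52%.

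Growth genes downstream of MYC were higher by a smaller margin. Myc itself was at 104 CPM without cytokine and 225 with IL-2 (2.16-fold, 2.05 to 2.28), and 11 of 29 tested genes of MYC and ribosome biogenesis were at least 2-fold higher and none lower, with a median of 0.92. This count depended on the scaling and the reference, since trimmed-mean scaling gave 6 of 28, totals without ribosomal protein and mitochondrial genes 7 of 30, and 5 IU/mL IL-15 as the reference 3 of 29, with a median of 0.53. Over all genes that reference gave 4.7% higher and 2.98% lower. Myc was at a log2 difference of 0.96, under 2-fold, by trimmed-mean scaling. Odc1 and Srm, enzymes of polyamine synthesis, were at 62.7 and 213 CPM and at 25.2 and 88.9 CPM. Nucleolar genes were closer to the limit, such as Nolc1 at 45.3 and 109 CPM, Gnl3 at 45.1 and 121 CPM and Ncl, just under it, at 741 and 1468 CPM. The E-box CACGTG, the word bound by MYC with its partner MAX and by other factors, was present in 15.3% of higher genes, 7.5% of lower genes and 11% of tested genes with a window.

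In glycolysis, 7 of 19 tested genes were at least 2-fold higher and none lower, with a median of 0.79. By trimmed-mean scaling the count was 5, and against 5 IU/mL IL-2 it was 3. The glucose transporter genes Slc2a3 and Slc2a1 were at 62.1 and 284 CPM (4.57-fold, 4.3 to 4.85) and at 23.1 and 77.2 CPM (3.34-fold, 3.02 to 3.71). Hexokinase 2, Hk2, was at 26.4 and 138 CPM (5.21-fold, 4.76 to 5.72), and the lactate exporter Slc16a3 at 56.9 and 157 CPM. Of enzymes of the lower pathway, Pgam1 was at 297 and 644 CPM, past 2-fold here but under it by trimmed-mean scaling and against 5 IU/mL IL-2, with log2 differences of 0.97 and 0.67. Under 2-fold were Gapdh at 2982 and 4457 CPM and Eno1 at 599 and 518 CPM. Txnip, a brake on glucose uptake, was among the 15 lowest genes, at 273 CPM without cytokine and 56.3 with IL-2 (4.85-fold lower, 4.52 to 5.2).

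Other metabolic groups had fewer genes past 2-fold than glycolysis. None of 76 tested nuclear genes of oxidative phosphorylation passed 2-fold, with log2 differences from -0.72 to 0.85. Of 21 tested genes of sterol synthesis 1 was at least 2-fold higher, with a median of 0.36. Fatty acid synthesis had 3 of 13, the desaturases Scd1 and Fads2 and the elongase Elovl6, with a median of 0.68. Its log2 differences ran from 0.18 to 1.36, so all 13 were on the higher side. Against 5 IU/mL IL-2 and against 5 IU/mL IL-15 the list had 1 of 13, with medians of 0.26 and 0.29. Scd1 was at 31.1 and 80.2 CPM, and under 2-fold against either, with log2 differences of 0.59 and 0.92.

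**Figure D3:**
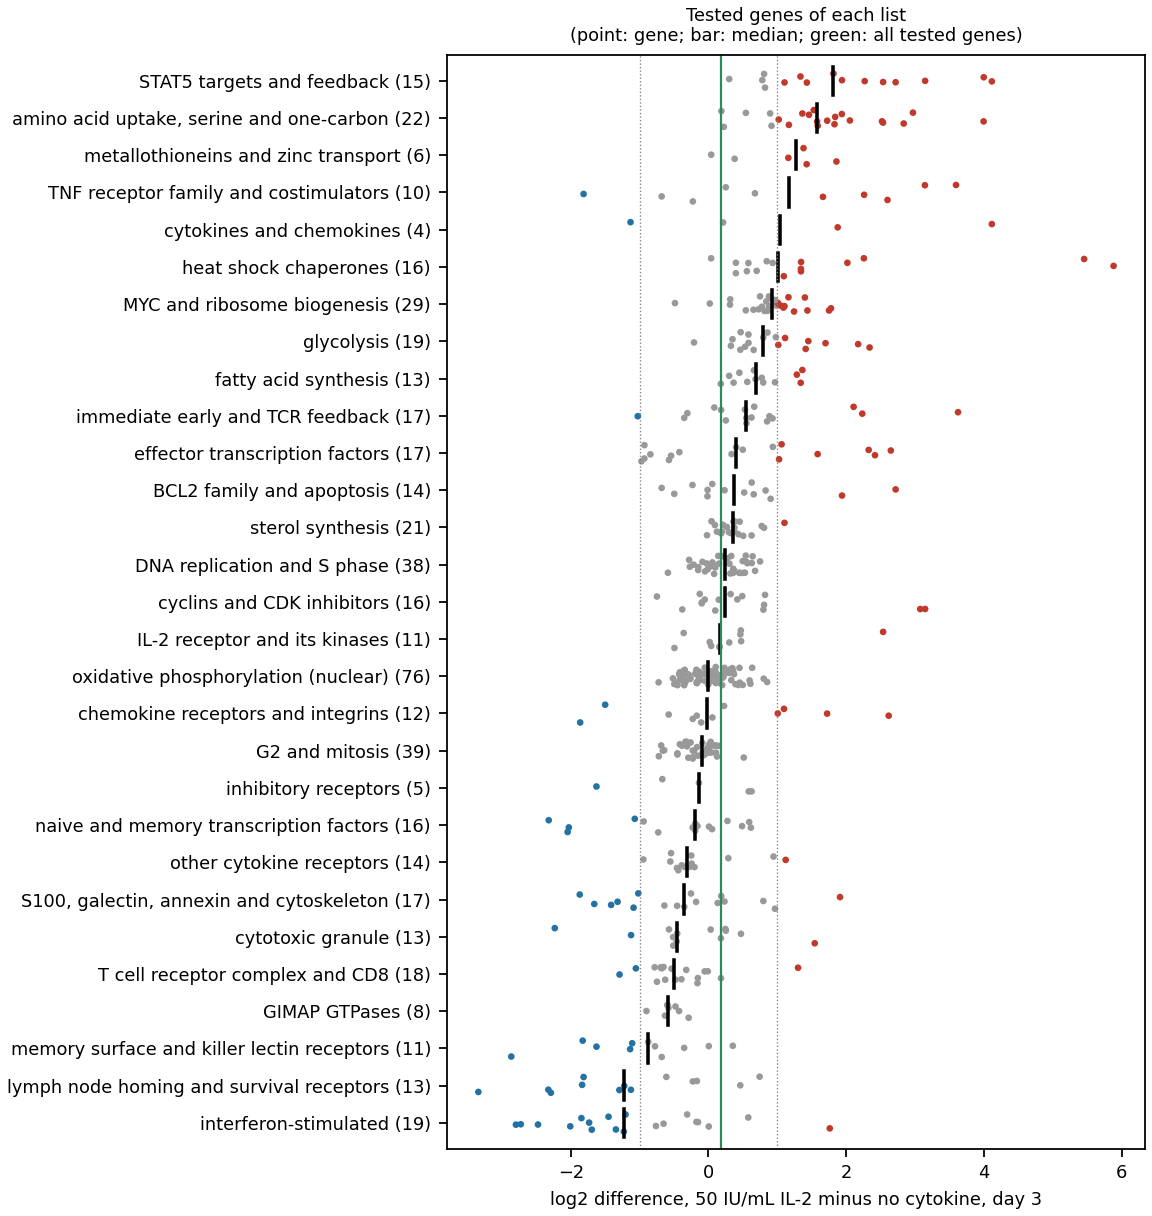
Log2 differences of the tested genes of each fixed list, 50 IU/mL IL-2 minus no cytokine on day 3, with 1 point per gene, the number tested in brackets, a black bar at the median of the list and a green line at the median of all 6030 genes. Dotted lines mark 2-fold, and medians run from -1.23 for interferon-stimulated genes to 1.81 for STAT5 targets.

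Effector genes were divided. Granzyme B, Gzmb, the main killing protease of activated CD8 cells, was at 6.5 CPM in naive cells, 642 without cytokine and 1873 with IL-2 (2.92-fold, 2.86 to 2.97). In thinned cells 89.6% had a Gzmb UMI with IL-2, 53.2% without and 0.76% in naive cells, and 57.8% against 14.7% had 3 or more. Unthinned shares with a UMI were 95.1%, 70.9% and 1.09%. Granzyme A, Gzma, was on the other side, at 59.7 CPM without cytokine and 11.9 with IL-2 (5.01-fold lower, 4.31 to 5.84). Of 13 tested granule genes 1 was at least 2-fold higher and 2 lower, the other lower one being Ctsw at 192 and 87.7 CPM. The chemokine gene Ccl5 was at 885 CPM in naive cells, 177 without cytokine and 80.3 with IL-2 (2.21-fold lower, 2.07 to 2.35).

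Transcription factors of effector cells were higher in 6 of 17 cases and lower in none, with a median of 0.40, but trimmed-mean scaling gave 4 higher and 3 lower. Bhlhe40, a repressor induced by activation, was at 38.2 and 245 CPM (6.4-fold, 5.94 to 6.9), Nfil3 at 15.4 and 86.7 CPM (5.62-fold, 4.99 to 6.34), and Batf3, a partner of JUN proteins, at 24.8 and 128 CPM (5.17-fold, 4.71 to 5.69). Irf4 was at 39.9 and 82.1 CPM. Prdm1 (BLIMP-1), a STAT5-responsive repressor of the memory state, was at 24.5 and 47.8 CPM, and Tbx21 (T-bet), a driver of effector fate, at 20.9 and 10.2 CPM, both just inside 2-fold and on opposite sides. Among immediate early genes, 3 of 17 were at least 2-fold higher and 1 lower. The AP-1 gene Fosl2 was the widest of these, at 4.67 CPM without cytokine and 68.9 with IL-2 (14.7-fold, 12 to 18.2).

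Of 13 tested genes of lymph node homing and survival receptors, 8 were at least 2-fold lower and none higher, with a median of -1.22. S1pr1, the receptor that lets T cells leave lymph nodes, was at 448 CPM in naive cells, 165 without cytokine and 32.2 with IL-2 (5.13-fold lower, 4.69 to 5.63). Slamf6, a surface receptor of stem-like T cells, was at 136 and 37.3 CPM (3.64-fold lower, 3.33 to 3.97). For S1pr1 the culture without cytokine lay between naive cells and the IL-2 culture. The entry receptor gene Ccr7 was at 182 and 162 CPM, and Il7r, the receptor for interleukin-7, at 137 and 230.3 CPM, so that both were under 2-fold and on opposite sides.

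Among transcription factors of naive and memory cells 4 of 16 were at least 2-fold lower and none higher, with a median of -0.19. Tcf7 (TCF-1, chr11:52252371-52283014, minus strand), which sustains memory and stem-like T cells, was at 471 CPM in naive cells, 256 without cytokine and 50.5 with IL-2 (5.07-fold lower, 4.71 to 5.46). Klf2, which drives S1pr1, was at 883, 277 and 66.3 CPM, 4.17-fold (3.91 to 4.45) lower with IL-2 than without cytokine. Klf3 and Id3 were the others, at 37.4 and 8.42 CPM and at 74.7 and 35.1 CPM. For Id3 the log2 difference of -1.07 was -0.27 against 5 IU/mL IL-2 and -0.48 against 5 IU/mL IL-15. Lef1, related to Tcf7, was at 217 and 112 CPM, just inside 2-fold, and Foxo1 and Satb1 were at 95 and 95.5 CPM and at 446 and 541 CPM. A Tcf7 UMI was found in 58.7% of naive cells, 36.4% of cells without cytokine and 9.53% with IL-2, and unthinned in 77%, 55.8% and 19.5%.

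Cxcr3 (chrX:101731535-101734269, minus strand), the chemokine receptor that guides effector cells to inflamed tissue, was the gene with the lowest log2 difference of those at 50 CPM or more in either library, at 102 CPM without cytokine and 9.21 with IL-2 (11.1-fold lower, 9.43 to 13.2). Naive cells had 35 CPM, so that the IL-2 culture lay below them. Cxcr6, of tissue-resident cells, was at 52.2 and 13.6 CPM and the integrin gene Itga4 at 59.4 and 20.4 CPM, while Ccr4 was on the higher side at 3.64 and 27.4 CPM. The shares of cells with a Cxcr3 UMI were 17.4% without cytokine, 1.73% with IL-2 and 5.5% in naive cells, and unthinned 35.9%, 4.09% and 9.17%.

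Surface genes of memory and natural killer receptor type were lower in 5 of 11 cases and higher in none, with a median of -0.87. Klrd1 (CD94), a chain of receptors for Qa-1, was at 357 CPM without cytokine and 48.3 with IL-2 (7.4-fold lower, 6.88 to 7.97), with 269 CPM in naive cells. Klrk1 (NKG2D) was at 121 and 54.3 CPM, Cd160 at 35.6 and 10.8 CPM, and Ly6a (Sca-1), an interferon-responsive surface protein, at 714 and 331 CPM. None of 8 tested GIMAP GTPase genes, which support survival of resting lymphocytes, passed 2-fold, but all 8 were on the lower side, with a median of -0.59. Of 5 tested inhibitory receptor genes only Cd160 passed 2-fold, with a median of -0.14. The totals that lack ribosomal and mitochondrial genes gave 2 of 7 higher and 1 lower with a median of 0.48, and 5 IU/mL IL-15 as the reference 1 of 5 higher and 3 lower with -1.07. Ctla4 and Lag3 were at 358 and 552 CPM and at 84.9 and 128 CPM.

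Genes of the T cell receptor complex and CD8 shared the lower side, with 2 of 18 at least 2-fold lower, 1 higher and a median of -0.51. Cd8b1 was at 718 and 293 CPM and Cd3g at 822 and 395 CPM. Of the 8 T cell markers summed above, 6 were at a lower level with IL-2, while Thy1 was at 466 CPM without cytokine and 585 with IL-2 and Lck at 304 and 345 CPM. Fewer molecules per cell and a larger total per cell cannot be told apart in CPM.

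Interferon-stimulated genes had a median of -1.23, close to the -1.22 of the homing list. Of 19 tested, 11 were at least 2-fold lower and 1 higher. Irf9, the DNA-binding part of the factor that type I interferons activate, was at 39.8 CPM without cytokine and 16.7 with IL-2 (2.38-fold lower, 2.08 to 2.74), and Irf1 at 123 and 47.9 CPM. The GTPase genes Iigp1, Gbp2 and Irgm1, which serve defence within infected cells, were at 127 and 17.4 CPM, at 105 and 28.5 CPM and at 74 and 22.2 CPM. Among nucleic acid sensor genes on chromosome 1, Ifi203 was at 125 and 18.1 CPM (6.92-fold lower, 6.14 to 7.82) and Ifi209 at 38.6 and 6.12 CPM, and Mndal, which shares 27.2% of its 50-base words with other genes and is less certain, at 137 and 31.1 CPM. Ifi27l2a was at 499 and 124 CPM. Ifitm2, which has near-identical sequence elsewhere, was the higher one, at 20.4 and 71.5 CPM. The receptor genes Ifngr1, Ifnar1 and Ifnar2 were under 2-fold, with log2 differences of -0.55, -0.46 and -0.54.

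The response element bound by interferon-regulated factors contains GAAANNGAAA. Promoters of 3 genes of the interferon list are shown, those at least 2-fold lower with IL-2 that carry it in the window. They lie at chr3:142620413-142620662 on the plus strand and at chr11:48871421-48871670 and chr1:173942493-173942742 on the minus strand, with matches in capitals.
Gbp2: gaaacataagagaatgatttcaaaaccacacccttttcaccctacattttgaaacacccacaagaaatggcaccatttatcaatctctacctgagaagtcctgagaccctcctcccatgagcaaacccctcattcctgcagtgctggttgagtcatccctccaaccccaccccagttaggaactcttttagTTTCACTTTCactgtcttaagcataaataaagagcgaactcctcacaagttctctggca
Irgm1: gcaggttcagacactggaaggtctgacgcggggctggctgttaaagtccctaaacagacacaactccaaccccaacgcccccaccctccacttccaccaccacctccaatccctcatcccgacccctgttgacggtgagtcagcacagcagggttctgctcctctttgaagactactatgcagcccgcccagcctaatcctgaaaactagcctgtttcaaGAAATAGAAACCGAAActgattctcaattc
Ifi203: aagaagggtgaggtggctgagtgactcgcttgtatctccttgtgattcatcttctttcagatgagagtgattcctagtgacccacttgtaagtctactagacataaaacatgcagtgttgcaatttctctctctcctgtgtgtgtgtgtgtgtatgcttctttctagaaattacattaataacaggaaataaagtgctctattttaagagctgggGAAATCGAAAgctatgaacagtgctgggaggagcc
Irgm1 had 2 overlapping matches, at 30 and 24 bases before its start, Ifi203 had 1 at 35 bases, and Gbp2 had 1 on the other strand at 59 bases. The word was present in 14 of the 120 lower genes with a window (11.7%), 3.39% of the 295 higher genes, 3.38% of tested genes and 3.46% of all promoters. In the interferon list 10 of 14 genes with a window had it, but of these only the 3 shown were at least 2-fold lower. Another 6 were under 2-fold, such as Gbp7 at 87.3 and 87.5 CPM, and the last was Ifitm2, the gene of the list on the higher side.

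In thinned cells the interferon list gave a median of 2 UMIs with IL-2 and 4 without, and 16.2% of cells with IL-2 held none of its molecules against 5.82% without. The homing list gave medians of 2 and 5, with 10.5% and 2.26% of cells at 0. Both medians were thus lower with IL-2, and most cells of both cultures still held some molecules of each list.

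The widest ratio of all was of another kind. The heat shock genes Hspa1a and Hspa1b, near-identical copies on chromosome 17 that encode the inducible HSP70, were at 0.135 and 0.225 CPM without cytokine, from 3 and 5 UMIs, and at 65.8 and 52.6 CPM with IL-2. The ratio for Hspa1a had a counting interval of 167 to 2372, and reads of these copies may be split between them. Unlike Il2ra these molecules sat in few cells, since 4.6% of thinned cells with IL-2 had an Hspa1a UMI, with 2.6 UMIs per positive cell on average, against 0.0471% without cytokine and 0.0671% of naive cells. Unthinned shares were 6.68%, 0.0673% and 0.0837%. The other 5 day 3 libraries with a cytokine held at most 0.193 CPM of Hspa1a, the value with 5 IU/mL IL-2v. With 50 IU/mL IL-2 the level was 128 CPM on day 5 and 0.183 CPM on day 10.

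Of 16 tested chaperone genes 8 were at least 2-fold higher and none lower, with a median of 1.01. Chaperones of mitochondria were among them, with Hspa9 at 86.1 and 415 CPM (4.82-fold, 4.58 to 5.07) and Hspd1 at 133 and 339 CPM. Hsph1, a partner of HSP70, was at 13.9 and 59.4 CPM, and the constitutive Hspa8 was at 1972 and 2026 CPM. The metal-binding metallothioneins Mt1 and Mt2 were at 265 and 714 CPM and at 53.5 and 196 CPM. Against 5 IU/mL IL-2 the log2 difference of Mt1 was 0.89, and 2 of 6 genes of its list were at least 2-fold higher in place of 4.

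The remaining genes of the 15 highest and 15 lowest had less known roles or less certain counts. Basp1, a membrane-associated protein, was at 15.3 and 173 CPM, and Emilin2 at 1.89 and 60.6 CPM (32.1-fold, 23.6 to 44.9), with 0 in naive cells. Hemk1 lies next to Cish on chromosome 9, at chr9:107327084-107338350 against chr9:107296026-107302784, and was at 8.22 and 83.5 CPM. Olfr1369-ps1 was at 48.8 and 415 CPM, and Gpld1, 45.5% of whose exons lie opposite Mrs2, at 5.35 and 51 CPM. On the lower side Dapl1 was at 227 and 45.7 CPM, Arl5c at 146 and 29.7 CPM and the non-coding Gm26740 at 99.7 and 11 CPM. Hist1h2ap, Gm10260 and Gm10076 share most of their sequence with a histone gene, Rps18 and Rpl41 and so are less certain. Gm10076 was at 3555 CPM without cytokine, 1619 at the low dose and 853 at the high dose of IL-2. By a looser limit, at least 20% of sequence words shared with other genes, copies touched 21 of the 389 higher and 28 of the 165 lower genes. The share among all tested genes is not given here.

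The low dose of IL-2 gave small differences from the same culture without cytokine. At 5 IU/mL, of 5646 genes tested 8 (0.142%) passed 2-fold on the higher side and 6 (0.106%) on the lower. Medians were 0.33 for STAT5 targets, 0.37 for the amino acid list, -0.28 for homing and -0.27 for interferon genes. Since all day 3 comparisons share the library without cytokine, the high dose was also set against the low dose. There 211 of 6057 genes were higher (3.48%) and 120 lower (1.98%), with a median of 0.09 over all. Of these, 207 and 108 were also called against the culture without cytokine. Both comparisons share the high-dose library, and their reference libraries differed little from each other. This overlap is therefore no separate evidence. Against the low dose the STAT5 list had 11 of 15 at least 2-fold higher with a median of 1.34. The homing list had 6 of 13 lower with -0.99, and the interferon list 9 of 19 lower and 1 higher with -0.96. Glycolysis had 3 of 19 higher with 0.39.

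**Figure D4:**
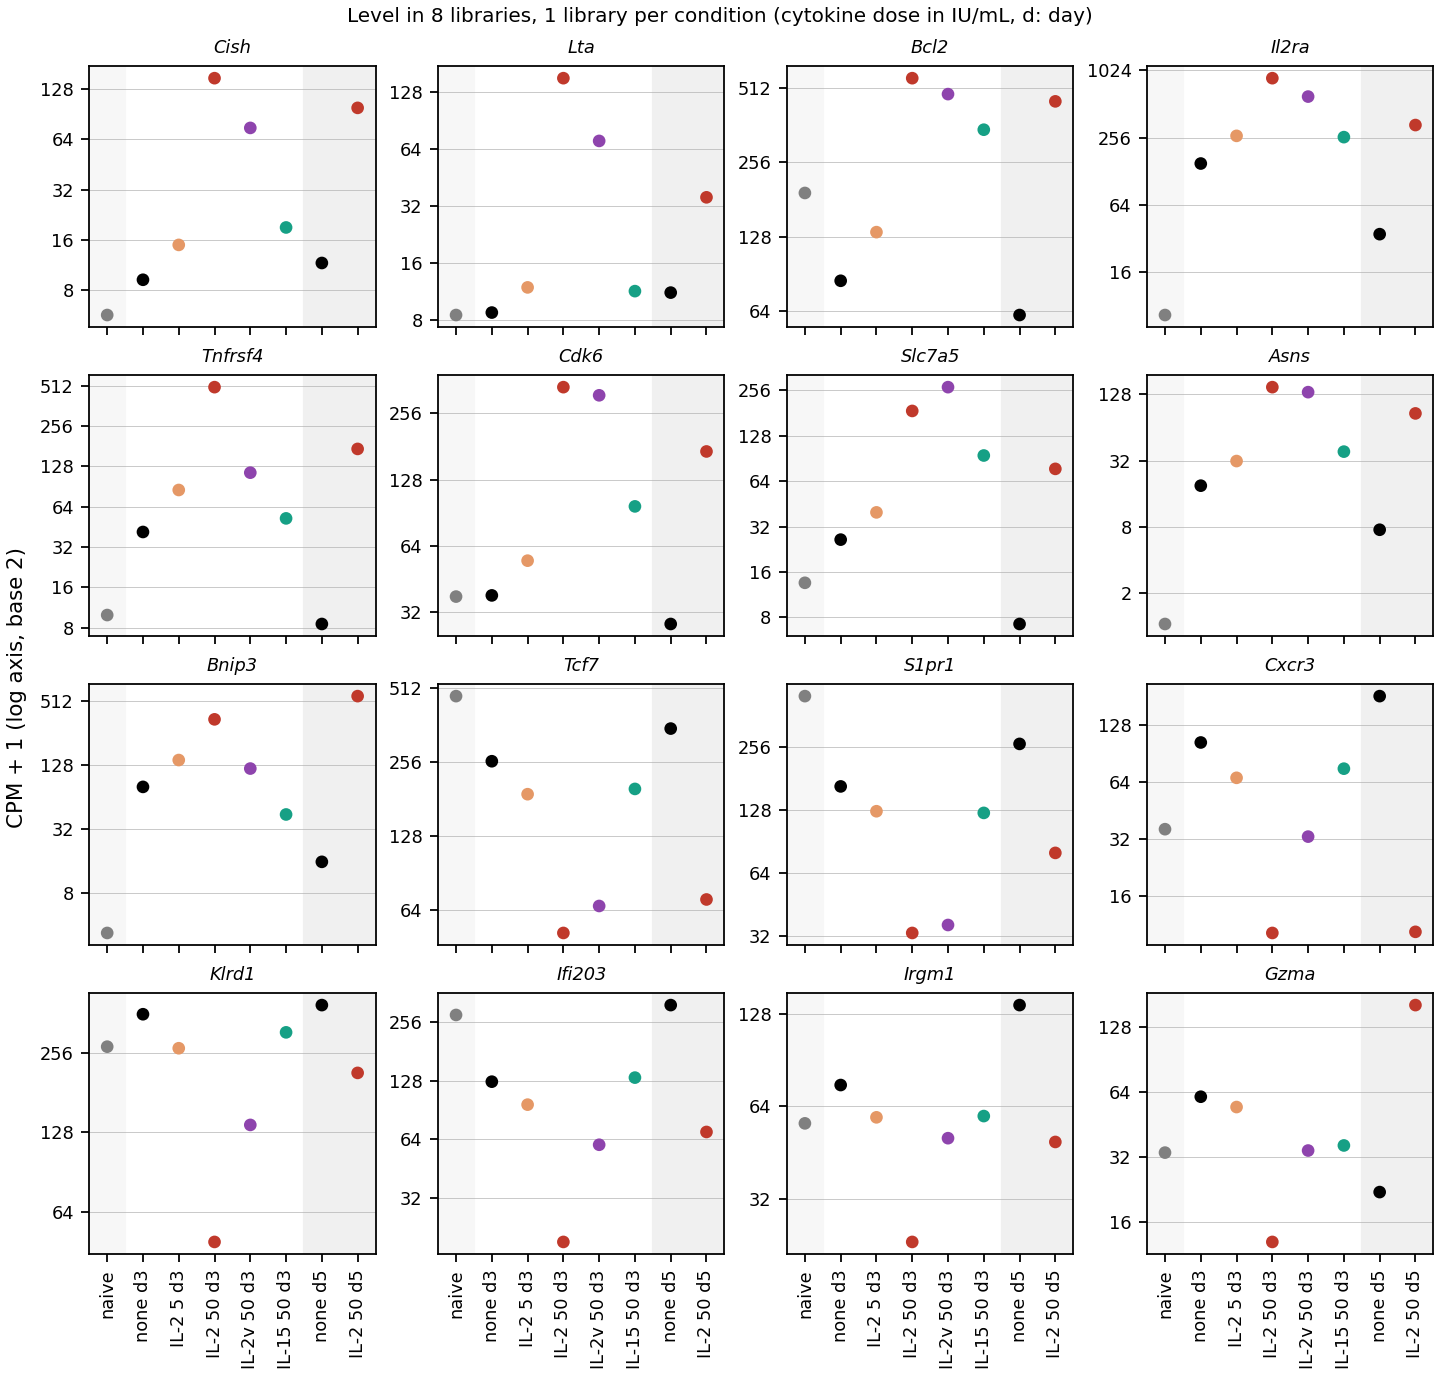
Level of 16 genes as CPM + 1 on a log axis of base 2 in naive cells, 5 day 3 libraries and 2 day 5 libraries (shaded), with 1 point per library and no replicates. For Cish the day 3 libraries run from 8.27 CPM without cytokine to 147 CPM with 50 IU/mL IL-2, and for Tcf7 from 256 down to 50.5 CPM.

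Other cytokines at 50 IU/mL on day 3 are set beside IL-2 here with no correlation or overlap, since their differences too were taken against the same library without cytokine. IL-2v, a mutant IL-2 in the labels, gave 475 genes higher (7.83%) and 106 lower (1.75%), and IL-15, which shares the beta and gamma chains, gave 47 (0.819%) and 15 (0.261%). List medians cover the genes that reached 20 CPM with 50 IU/mL IL-2 or without cytokine on day 3. Some, such as Lta and Cish, entered only through the IL-2 library, so these medians do not rank the cytokines. Medians of STAT5 targets were 1.81, 1.56 and 0.85 in the order IL-2, IL-2v, IL-15, and of the amino acid list 1.58, 1.74 and 0.61. For MYC and ribosome biogenesis they were 0.92, 1.57 and 0.77. Interferon genes had -1.23, -0.15 and -0.05, TNF receptors and costimulators 1.17, 0.48 and 0.14, and glycolysis 0.79, 0.11 and -0.10. Single genes showed both patterns. Cdk6 was at 336 CPM with IL-2 and 309 with IL-2v, Slc7a5 at 186 and 268 CPM, S1pr1 at 32.2 and 35.3 CPM, but Mt1 at 714 and 31.1 CPM, Fosl2 at 68.9 and 12.5 CPM and Irgm1 at 22.2 and 49.4 CPM.

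Of the 7 day 3 libraries, the one with 50 IU/mL IL-2 held the most genes set apart from all the others. Of 6408 genes at 20 CPM in any of them, 51 were at least 2-fold above each of the other 6 libraries and 35 at least 2-fold below. The corresponding counts were 8 and 11 for 50 IU/mL IL-2v, 0 and 2 for no cytokine, and 0 for the other 4 libraries. Genes above included Tnfrsf4, Tnfrsf8, Tnfrsf9, Tnfrsf18, Icos, Batf3, Bhlhe40, Nfil3, Fosl2, Bnip3, Ero1l, Slc2a3, Cdkn1a and Hspa1a. Genes below included Cxcr3, Klrd1, Gzma, Dapl1, Irgm1, Gbp2, Iigp1, Ifi203, Ifi209, Ly6c2 and Cd160. Of the STAT5 list, Lta was above all 6 as well, at 150.1 CPM against 69.4 with 50 IU/mL IL-2v, the next highest, while Cdk6 and Bcl2 were not.

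The same pair of treatments on day 5, from other libraries, gave 992 genes at least 2-fold higher (16.5%) and 454 lower (7.54%) of 6022 tested. Of the 389 genes higher on day 3, 225 were also higher on day 5, which is 57.8% of the day 3 list and 22.7% of the day 5 list, while 8 were at least 2-fold lower there. Of the 165 lower genes 87 were lower again, 52.7% and 19.2% of the lists, and 10 were higher. Cish was at 10.7 CPM without cytokine and 97.4 with IL-2 on day 5, Bcl2 at 60.8 and 449 CPM, and Cxcr3 at 181 and 9.35 CPM. Medians over the list genes tested on day 3 were 1.87 for STAT5 targets, 2.05 for the amino acid list, -1.73 for homing and -1.23 for interferon genes. G2 and mitosis genes had 2.50 on day 5 against -0.09 on day 3, and on day 5 Mki67 was at 36.3 CPM without cytokine and 430.2 with IL-2. The MYC and ribosome list had -0.53 against 0.92. These differences between days were not tested.

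**Figure D5:**
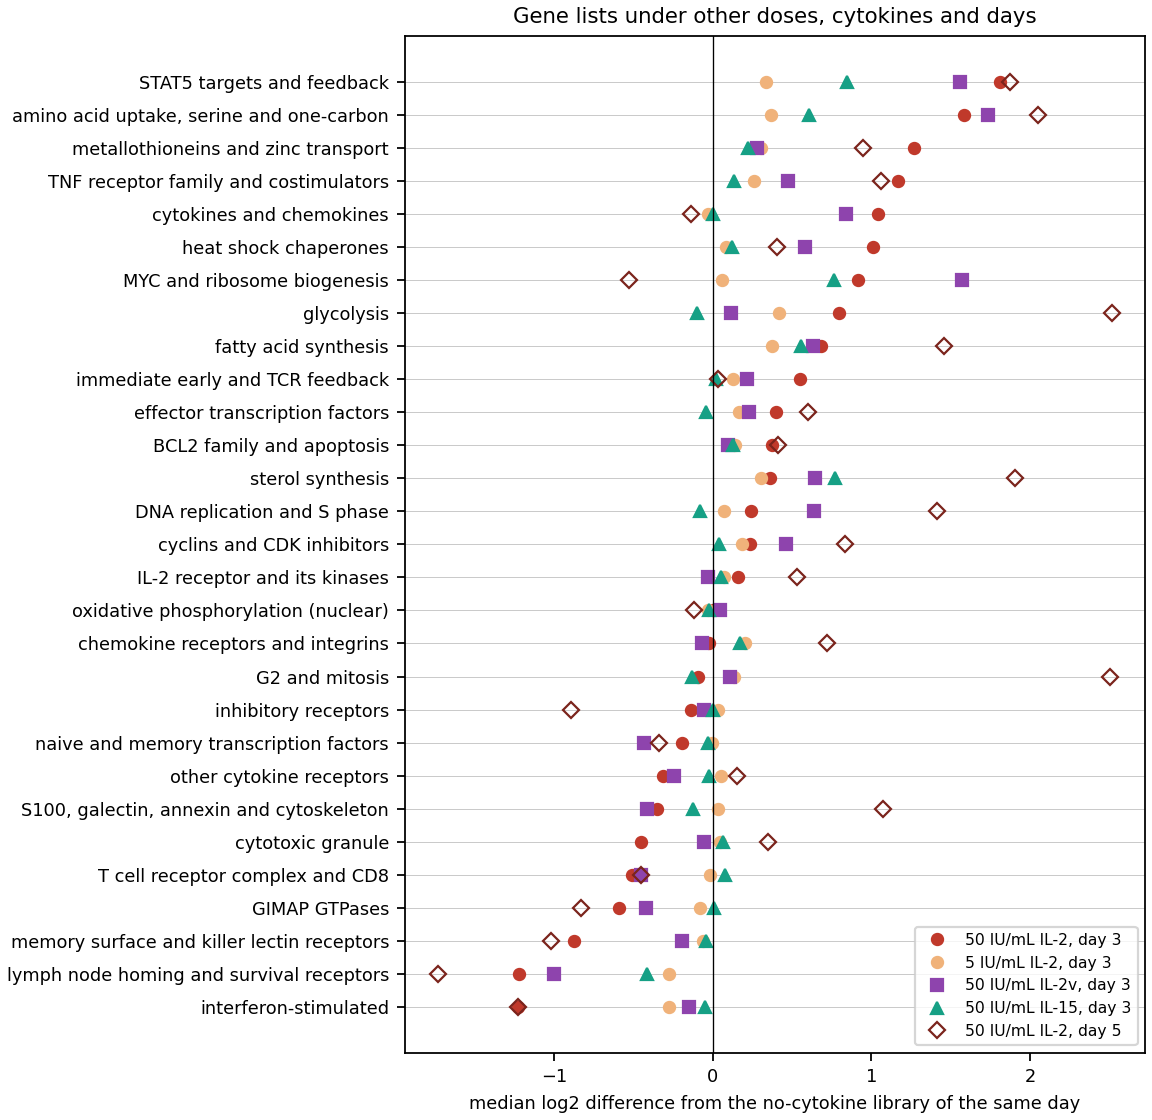
Median log2 difference of each fixed list from the no-cytokine library of that day, for 50 IU/mL IL-2, 5 IU/mL IL-2, 50 IU/mL IL-2v and 50 IU/mL IL-15 on day 3 and 50 IU/mL IL-2 on day 5, with 1 library per condition. Each median covers the genes tested for 50 IU/mL IL-2 on day 3, so the medians do not rank the cytokines. The 4 day 3 comparisons share their control library, and STAT5 targets run from 0.33 for the low dose of IL-2 to 1.87 on day 5.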

How the data were processed

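The authors deposited raw UMI counts, 1 table of 17516 gene symbols per library, and the submitters' processing notes name Cell Ranger, Seurat 4.0.1 and 3.0.2 and the build mm10 without saying what each was used for. Handling of doublets is not given in the sources used here. Cells under 1000 UMIs, under 500 genes or over 10% mitochondrial UMIs were left out (1 barcode of this pair). Counts were summed per library and scaled to CPM, and log2(CPM + 1) values were subtracted, which understates low genes. Genes with 20 CPM in either library were tested, and a difference of 1 in size was called. Named were the 15 highest and 15 lowest of genes with 50 CPM in either library, and members of 29 fixed lists. Intervals are exact Poisson, binomial and Clopper-Pearson at 95%. Shares of cells were taken after thinning to 2000 UMIs. Gene positions and shared 50-base words came from GENCODE vM21 (GRCm38). Python 3.11.15, numpy 2.4.6, pandas 2.3.3 and scipy 1.17.1 were used, and scripts were tested on simulated data. The comparison, genes and lists were chosen with earlier results of these data known. Alternatives were other cell filters, scalings, pseudocount, expression filter and thinning, and, chosen after seeing the data, the low-dose libraries as reference and cells with a Mki67 or Top2a UMI. Results of some items are not reported here, but counts and medians of lists include them.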

Additional observations from a re-analysis of the deposited data

Results flagged for a closer look

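Between days 3 and 5, 12 named genes had log2 differences of at least 1 in size and of opposite sign for 50 IU/mL IL-2 against no cytokine. The libraries of the days are separate, each condition had 1 library, and the difference between days was not tested. Over all genes 8 were higher on day 3 and lower on day 5, and 10 the reverse. Genes outside the lists and the 30 named are not given here. The named genes include a list of ribosome biogenesis, so its members were more likely to appear. Named genes higher on day 3 and lower on day 5 had day 5 values of -1.46 for Bop1, -1.03 for Gnl3, -1.50 for Nolc1, -1.13 for Ppan and -1.11 for the polyamine enzyme Srm. Relb, an NF-kB subunit, was at -1.15. By trimmed-mean scaling the day 3 values of Bop1, Ppan and Relb were under 2-fold, at 0.91, 0.95 and 0.93. Named genes lower on day 3 and higher on day 5 were Gzma at 2.87, S100a4 at 1.29 and S100a6 at 1.08. Gzma was at 59.7 CPM without cytokine and 11.9 with IL-2 on day 3, and at 21 and 160.2 CPM on day 5. Hist1h2ap at 3.66, Gm10260 at 1.87 and Gm10076 at 1.64 share sequence with other genes and are uncertain.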

How the results depend on the processing

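No paired analysis was possible because each condition had 1 library. Against 389 genes higher and 165 lower, a pseudocount of 10 CPM gave 243 and 107, and no expression filter 732 and 405 of 15129 tested genes. Library totals that leave out ribosomal protein and mitochondrial genes gave 286 lower of 7428 tested genes. Cells without a Mki67 or Top2a UMI gave 639 higher, and 5 IU/mL IL-2 as the reference gave 211 higher. The pseudocount shrinks low genes and the filter sets how many are tested. The totals both shift the scaling and let more genes be tested, and these parts were not told apart. For the others the cause was not tested. The remaining 19 counts lay within 1.5 times, and no gene was called on opposite sides in any of these settings. The share of cycling cells, 63.5% with IL-2 and 51.2% without, was 47.2% and 40.4% after thinning to 1000 UMIs, 73.8% and 60.0% without thinning, 71.2% and 61.7% by at least 3 UMIs of G2 and mitosis genes, and 49.0% without cytokine when cells over 2 times the median UMIs were left out. Such cells were 4.49% with IL-2 and 6.42% without. All 30 named genes kept their sign. Under 2-fold fell Hist1h2ap in the cells lacking both Mki67 and Top2a, Gm10260 and Gm10076 against 5 IU/mL IL-2, and these 3 against 5 IU/mL IL-15. Among other genes in the text, Irf4 fell under 2-fold by both scalings and against both low-dose libraries, and Pim1 against both. Slc16a3, Fads2, Cd3g, Tubb6, Bop1 and Relb did so against 5 IU/mL IL-2. Against 5 IU/mL IL-15 it was Gnl3, Nolc1, Bop1, Ppan, Elovl6, Irf1 and Ccl5. Phgdh, Bop1, Ppan and Relb fell under it with totals that leave out ribosomal protein and mitochondrial genes. With the pseudocount of 10 CPM, Irf9, Id3, Irf4, Phgdh, Bop1, Ppan and Relb fell under it. In cells with a Mki67 or Top2a UMI, Klrk1, Ccl5, Cd3g, Id3, Irf4, Phgdh and Bop1 did, and in cells without one S100a6 and Relb. Libraries are single, so counting error is the only error measured.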

Other observations

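Lists of 3 further programmes were drawn up after the values had been seen, so their counts describe and support nothing. Genes of the hypoxia response were at least 2-fold higher in 12 of 14 cases with 50 IU/mL IL-2 on day 3, with a median log2 difference of 1.35. Ero1l, an oxidase of disulphide formation, was at 85.9 CPM without cytokine, 174 with 5 IU/mL IL-2, 611 with 50 IU/mL, 121 under IL-2v and 73.8 under IL-15. Bnip3, a receptor for the removal of mitochondria, was at 78.8, 142, 343, 118 and 42.9 CPM in that order, and Vegfa at 6.61, 13.7, 37.4, 16 and 7.55 CPM. Over the same 14 genes the list's median was 0.51 with 5 IU/mL IL-2, -0.16 under IL-2v and -0.39 under IL-15, all against the same library. It was 2.88 with IL-2 on day 5. Hif1a itself was at 304 CPM without cytokine and 429 with 50 IU/mL IL-2.

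Aminoacyl-tRNA synthetases, which load amino acids onto tRNA, were at least 2-fold higher in 12 of 20 cases and lower in none, with a median of 1.22. Iars was at 25.5 and 99.6 CPM and Nars at 80.6 and 286 CPM, while Wars was at 42.2 CPM in both libraries. Endoplasmic reticulum stress genes were higher in 6 of 16 cases, with a median of 0.84, among them Xbp1 at 45.9 and 196 CPM and Hspa5 (BiP) at 127 and 324 CPM.

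Small calcium-binding and cytoskeletal genes were divided, with 6 of 17 at least 2-fold lower and 1 higher. Crip1 was at 2388 and 756 CPM, S100a6 at 515 and 193 CPM, and the tubulin gene Tubb6 at 6.65 and 27.7 CPM.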
